A study of Homo sapiens with 6 samples.

Results

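The CDX homeobox genes CDX1 (ENSG00000113722), CDX2 (ENSG00000165556) and CDX4 (ENSG00000131264) were followed across 6 RNA-seq libraries of human embryonic stem cells. The 3 genes were taken by symbol from a table of 63677 genes, and each symbol had 1 row. The cells belonged to the lines Royan H6, here RH6, and Royan H5, here RH5. There were 2 naive RH6 libraries at passage 10, 2 naive RH5 libraries at passage 17, 1 primed RH6 library at passage 20 and 1 primed RH5 library at passage 16. Naive cells, which resemble the embryo before implantation, were made by 2a2iL induction and then maintained in 2iL. Primed cells, in the usual state of such lines, received medium with bFGF. Both grew on inactivated MEF, mouse embryonic fibroblast feeders. State and medium, and within the naive state line and passage, cannot be told apart. Within a line state also goes with passage, 10 against 20 in RH6 and 17 against 16 in RH5. The labels do not say whether the naive duplicates were separate cultures. Each p-value below is therefore set against the spread of these libraries alone, and that spread may be technical.

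CDX proteins are transcription factors related to Drosophila caudal and belong, with PDX1 and the GSX genes, to the ParaHox homeobox family. In mouse embryos all 3 Cdx genes act in the tail end of the embryo, where Wnt, FGF and retinoic acid signals switch them on and where they in turn activate posterior Hox genes. Cdx2 also acts earlier, in the trophectoderm that forms the placenta, where it opposes Pou5f1, and CDX1 and CDX2 later maintain the intestinal lining in adults.

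The homeobox, the stretch of coding sequence for the DNA-binding homeodomain, is shown for each gene because it is the conserved stretch that defines the family and a place where reads could be shared. The sequences are from the GENCODE 29 transcripts (GRCh38) that the count table pairs with the genes, read 5′ to 3′ on the coding strand. Capitals mark the 58 of 180 bases at which the 3 genes were not all identical.
CDX1: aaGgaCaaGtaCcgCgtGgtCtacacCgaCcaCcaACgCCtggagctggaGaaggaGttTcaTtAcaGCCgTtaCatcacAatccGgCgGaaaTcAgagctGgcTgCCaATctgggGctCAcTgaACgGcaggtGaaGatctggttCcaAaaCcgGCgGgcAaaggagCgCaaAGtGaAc
CDX2: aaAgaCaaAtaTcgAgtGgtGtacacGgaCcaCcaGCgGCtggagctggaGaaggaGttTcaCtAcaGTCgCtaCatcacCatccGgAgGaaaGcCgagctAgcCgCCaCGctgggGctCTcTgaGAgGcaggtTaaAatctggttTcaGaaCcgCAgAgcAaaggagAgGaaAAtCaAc
CDX4: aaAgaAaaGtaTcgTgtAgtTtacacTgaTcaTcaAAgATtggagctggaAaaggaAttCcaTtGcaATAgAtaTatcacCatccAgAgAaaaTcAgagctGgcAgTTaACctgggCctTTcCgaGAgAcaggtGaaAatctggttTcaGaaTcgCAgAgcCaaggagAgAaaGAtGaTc
In each gene the homeobox lies in the coding part of 2 exons of 3. In CDX1 it covers chr5:150182782-150182913 and chr5:150183474-150183521 on the plus strand, and in CDX4 chrX:73453531-73453662 and chrX:73454379-73454426 on the plus strand. In CDX2 it covers chr13:27964870-27965001 and chr13:27963322-27963369 on the minus strand. CDX1 and CDX2 were the closest pair, identical at 147 bases (81.7%) and at 56 of the 60 homeodomain residues. CDX2 and CDX4 shared 138 bases (76.7%) and CDX1 and CDX4 131 (72.8%). The longest run that any pair of full transcripts had in common was 23 bases, between CDX1 and CDX2, shorter than the 75-base reads. No other gene of GENCODE 29 overlapped any of the 3.

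CDX1 and CDX2 mRNA were present in naive cells of both lines and nearly absent from primed cells, while CDX4 stood apart from primed cells in naive RH5 alone. CDX1 had 77 and 72 counts in the naive RH6 libraries and 210 and 199 in the naive RH5 libraries, against 1 in primed RH6 and 1 in primed RH5. CDX2 had 75 and 44 counts in naive RH6 and 101 and 88 in naive RH5, against 0 in primed RH6 and 3 in primed RH5. CDX4 had 6 and 4 counts in naive RH6 and 26 and 44 in naive RH5, against 5 in primed RH6 and 7 in primed RH5. For CDX1 and CDX2 every naive library lay above both primed libraries, which held for 21.5% of the 19434 genes tested. For CDX4 the naive RH6 libraries overlapped the primed ones, and only the naive RH5 libraries were higher.

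The libraries held 13457979 to 14663982 counts in all, so 1 count was a very small share of any library. CPM here is the count scaled to the counts of all tested genes in the library, per M, after TMM scaling. The floor of 3 counts, the limit that a count of 0 allows, was 0.201 CPM in primed RH6. Primed CDX1 and CDX2, with 0 to 3 counts a library, did not exceed 3 counts, so this depth does not show whether primed cells make either transcript. These are levels in bulk RNA, where fewer cells with a transcript and less of it per cell cannot be told apart.

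**Figure D1:**
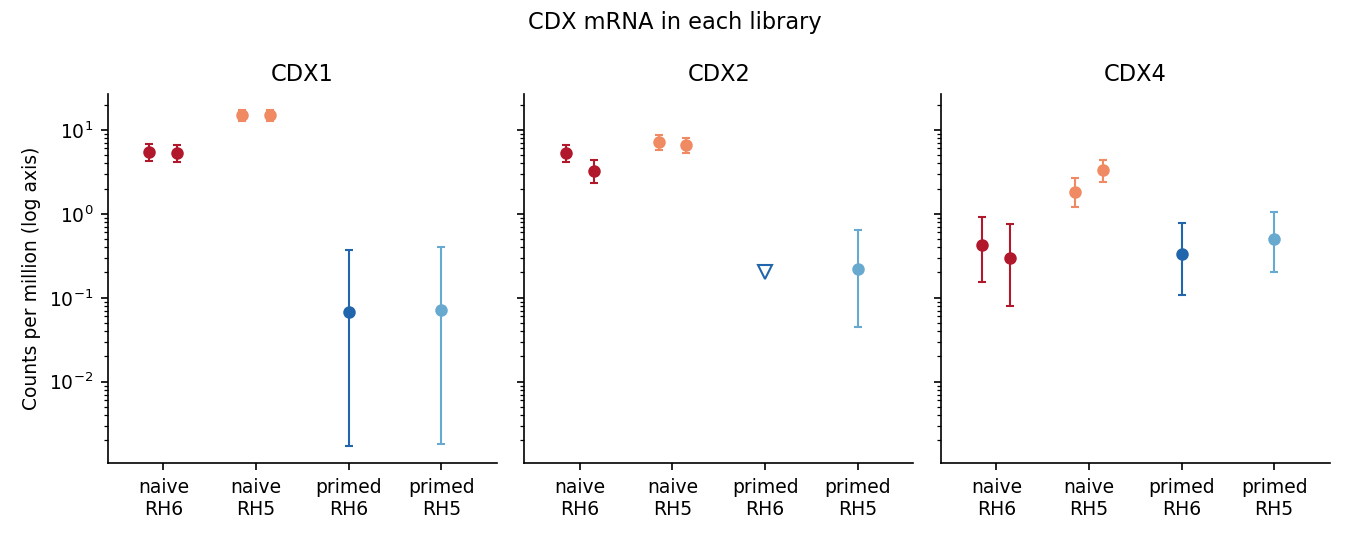
CPM of CDX1, CDX2 and CDX4 in each library on a log axis, with naive groups left of primed groups; points are single libraries and bars are exact 95% Poisson intervals, which cover counting error only. The open triangle marks primed RH6 at 0 CDX2 counts, drawn at the floor of 3 counts (0.201 CPM). Naive CDX1 and CDX2 lie above every primed value, and CDX4 is separate from primed only in naive RH5.

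CDX1, which in mouse responds to Wnt and retinoic acid and patterns the vertebrae, averaged 10.1 ± 5.49 CPM in naive libraries (SD, n = 4), against 0.0671 CPM in primed RH6 and 0.0724 CPM in primed RH5. Most of the naive spread lay between the lines. CDX1 was at 5.40 and 5.30 CPM in naive RH6 and at 14.9 and 14.9 CPM in naive RH5. By summed counts, naive over primed, CDX1 was 145-fold higher, with a 95% counting interval of 39.9 to 1197. Within RH6 the fold was 79.7, from 149 naive counts and 1 primed count (interval 14.1 to 3170), and within RH5 it was 205, from 409 and 1 (36.6 to 8122). The fitted log2 fold change over both lines was 6.96 ± 0.37 (SE), with an adjusted p of 9.66e-05 by edgeR's quasi-likelihood test. It ranked 19 from the highest of the 19434 genes tested. That SE was derived from the F statistic and is too narrow for so few primed counts. DESeq2 gave 7.15 ± 1.05 (SE). CDX1 passed the test in each line as well, with adjusted p = 1.48e-05 in RH6 and 2.05e-06 in RH5 by edgeR. All 3 genes passed the filter on low counts, each through its naive libraries alone, which favours a difference in that direction. CDX4 passed through naive RH5 alone. Over both lines the test called 25.7% of all genes, 12.1% higher and 13.6% lower in naive cells.

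CDX2, the trophectoderm and intestinal factor, averaged 5.55 ± 1.73 CPM in naive libraries (SD, n = 4), against 0 CPM in primed RH6 and 0.217 CPM in primed RH5. By summed counts CDX2 was 53.2-fold higher in naive than in primed cells (interval 18.0 to 260). This fold rests on 3 primed counts, and with 1 primed library left out it was 25.6 without primed RH6 and at least 27.6, against the floor of 3 counts, without primed RH5. Against the floor of 3 counts it was at least 21.2-fold higher in RH6, where 119 naive counts stood against 0 primed counts. Within RH5 the fold was 31.6, from 189 naive counts and 3 primed counts (interval 10.6 to 155). CDX2 was called higher by edgeR over both lines, at a log2 fold change of 5.64 ± 0.61 (SE, adjusted p = 0.0011), where DESeq2 gave 5.78 ± 0.93. It was also called within RH5 (edgeR adjusted p = 1.22e-04) and, against a primed count of 0, within RH6 (edgeR adjusted p = 1.25e-04). Within RH6 the test called 33.6% of all genes, 16.4% higher and 17.2% lower in naive cells, and within RH5 33.5%, of which 16.5% were higher and 17% lower.

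CDX4, the X-linked member, whose zebrafish counterpart is needed for blood formation, was not called over both lines. It passed the low-count filter through the naive RH5 libraries alone, which favours a higher level there. It averaged 1.46 ± 1.4 CPM in naive libraries (SD, n = 4), against 0.335 CPM in primed RH6 and 0.507 CPM in primed RH5, with a log2 fold change of 1.48 ± 0.64 (SE, edgeR adjusted p = 0.1355). Within RH6 the summed-count fold was 1.07, with an interval of 0.333 to 3.99, which spans both a lower and a higher level (edgeR adjusted p = 0.9473). Within RH5 the fold was 5.02, from 70 naive and 7 primed counts (interval 2.31 to 12.9), and CDX4 was called higher there (edgeR adjusted p = 0.0153). DESeq2 did not make that call (adjusted p = 0.1287), nor did edgeR without naive RH5 replicate 2 (adjusted p = 0.0528). Leaving out primed RH6 turned the value over both lines into that of RH5, and CDX4 was then called (edgeR adjusted p = 0.0142).

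The difference of the naive effect between the lines was then tested directly, as an interaction. It was not called for CDX1 (edgeR adjusted p = 0.7207), CDX2 (0.3103) or CDX4 (0.2464), where the test called 12% of all genes, 5.86% higher and 6.16% lower in RH6 minus RH5. The call for CDX4 in RH5 and its absence in RH6 therefore do not show that the effect differed between the lines.

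**Figure D2:**
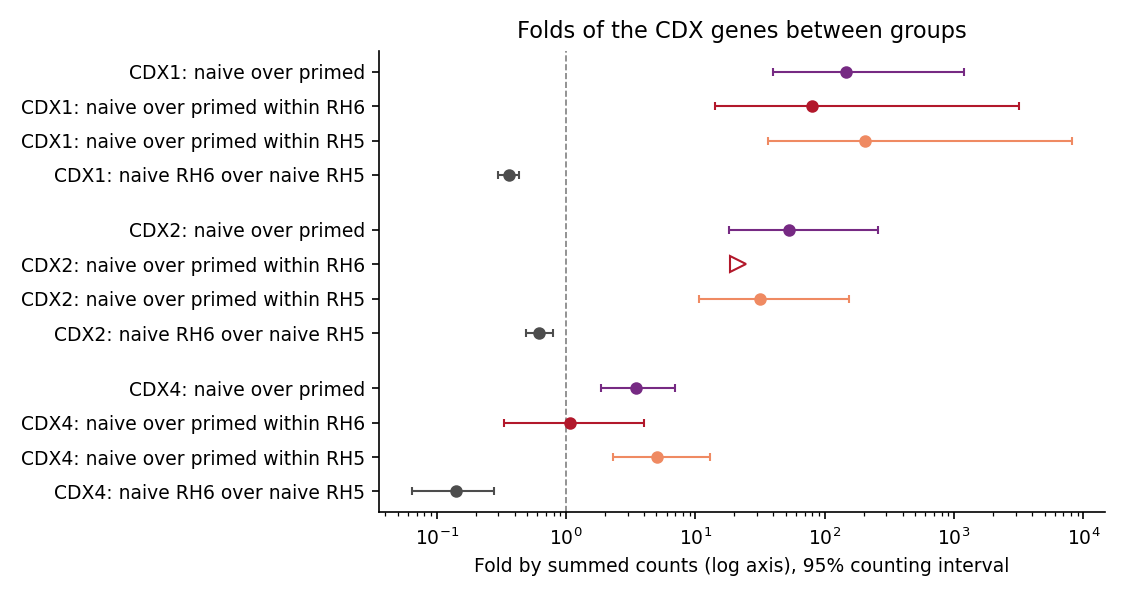
Fold by summed counts of each CDX gene between groups, on a log axis, with exact 95% counting intervals. The open triangle is a lower bound of 21.2 against the floor of 3 counts. The intervals of CDX1 and CDX2 for naive over primed lie above 1, that of CDX4 within RH6 spans 1, and all 3 intervals for naive RH6 over naive RH5 lie below 1.

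Naive RH6 cells held less CDX mRNA than naive RH5 cells. Summed over the 3 genes, the level was 11.1 and 8.83 CPM in naive RH6 and 23.8 and 24.7 CPM in naive RH5. CDX1 in naive RH6 was at 0.36 times its level in naive RH5 by summed counts (interval 0.296 to 0.435), with a log2 fold change of -1.47 ± 0.18 (SE, edgeR adjusted p = 2.13e-04). CDX4 was at 0.141 times (interval 0.0649 to 0.275), with a log2 fold change of -2.80 ± 0.50 (edgeR adjusted p = 0.0027). Its passage of the low-count filter through naive RH5 alone favours that direction. CDX2 was at 0.622 times (interval 0.490 to 0.787), and at -0.69 ± 0.26 on the log2 scale it missed the threshold (edgeR adjusted p = 0.0841). Without naive RH6 replicate 1 CDX2 was called lower (edgeR adjusted p = 0.0197), at 0.472 times. Of all genes tested 25.5% were called, 12% higher and 13.5% lower in naive RH6 than in naive RH5, and for 31.9% both naive RH5 libraries lay above both naive RH6 libraries.

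The duplicates of CDX1 were close, with a ratio of replicate 1 to replicate 2 of 1.02 in naive RH6 (interval 0.729 to 1.43) and 0.999 in naive RH5 (0.819 to 1.22). Those of CDX2 differed by more than counting error in naive RH6, where the ratio was 1.62 (1.1 to 2.41). Those of CDX4 differed in naive RH5, at 0.56 (0.331 to 0.929). By these intervals, not corrected for their number, CDX2 in RH6 and CDX4 in RH5 carry more spread than their counts alone imply. Over all genes the mean chi-square per gene between duplicates was 9.22 in naive RH6 and 5.76 in naive RH5. That mean grows with counts, so it does not give the spread of genes with as few counts as these.

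The makeup of the CDX counts varied among the naive libraries, and no difference between the lines was tested. CDX1 made up 50.7% of the CDX1 and CDX2 counts in naive RH6 replicate 1 (exact Clopper-Pearson interval 42.4 to 58.9%) and 62.1% in replicate 2 (52.6 to 70.9%). In naive RH5 it made up 67.5% (62 to 72.7%) and 69.3% (63.6 to 74.6%). The intervals of naive RH6 replicate 2 and the naive RH5 libraries overlap, and only naive RH6 replicate 1 lies below both. In primed cells the few counts were mostly CDX4, with 5 of 6 CDX counts in primed RH6 and 7 of 11 in primed RH5.

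Levels of different genes were compared per kilobase of the transcript (1758 bases for CDX1, 4053 for CDX2 and 1515 for CDX4 in GENCODE 29). On this scale, in CPM per kilobase, naive libraries ranged over 3.01 to 8.46 for CDX1, 0.799 to 1.76 for CDX2 and 0.194 to 2.17 for CDX4 (n = 4 each). With these lengths CDX1 was highest and did not overlap with the others. The annotation used for counting is not given, and a shorter CDX2 transcript would raise CDX2 on this scale and could change that order. The ranges of CDX2 and CDX4 overlapped over all naive libraries. Within naive RH6 CDX2, at 1.30 and 0.799, lay above CDX4, at 0.278 and 0.194, and within naive RH5 CDX2, at 1.76 and 1.62, overlapped with CDX4, at 1.21 and 2.17.

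CDX2 and CDX4 had an entry in the RefSeq promoter table. The 250 bases before each RefSeq start (GRCh38.p14), read 5′ to 3′ on the gene's strand, are shown to be read beside the levels of the Wnt and POU factors that are known to act on Cdx genes. Capitals mark matches to 4 short motifs, chosen after the sequences had been read and searched on both strands: CTTTGA (the core of TCF/LEF sites, through which Wnt signals act), ATGCAAAT (the octamer bound by POU factors such as POU5F1), CCAAT and AGGTCA (the half-site of nuclear receptors such as RARG).
CDX2: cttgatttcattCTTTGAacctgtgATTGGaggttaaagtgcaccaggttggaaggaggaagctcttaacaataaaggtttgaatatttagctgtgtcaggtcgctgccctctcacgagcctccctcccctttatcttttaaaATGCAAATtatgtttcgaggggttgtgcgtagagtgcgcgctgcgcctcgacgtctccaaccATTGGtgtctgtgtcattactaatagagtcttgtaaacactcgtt
CDX4: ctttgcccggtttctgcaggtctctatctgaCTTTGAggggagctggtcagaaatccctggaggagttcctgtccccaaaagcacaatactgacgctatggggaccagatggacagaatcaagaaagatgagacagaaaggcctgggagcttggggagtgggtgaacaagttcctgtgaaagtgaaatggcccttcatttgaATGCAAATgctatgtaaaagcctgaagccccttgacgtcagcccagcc
The CDX2 window is chr13:27969316-27969565 on the minus strand and the CDX4 window chrX:73446803-73447052 on the plus strand. Both held 1 CTTTGA, 238 to 233 bases before the start in CDX2 and 219 to 214 before it in CDX4. That motif was in 11.2% of the 35116 promoter windows of the same length. Both held 1 octamer, 107 to 100 bases before the start in CDX2 and 48 to 41 before it in CDX4, a motif found in 1.63% of windows. CDX2 held CCAAT 2 times, both on the opposite strand, and CDX4 did not hold it (32.0% of windows). AGGTCA was in neither window (12.1% of windows). No matched motifs overlapped each other. In GENCODE 29 the CDX2 gene spans chr13:27962137-27971139 on the minus strand, so this CDX2 window lies inside the gene, downstream of its start. The CDX4 window lies upstream of the GENCODE 29 start at chrX:73447254. A match in these letters is not a measured binding site.

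Genes with the profile most like each CDX gene were found by the root mean square difference of mean-centred log2 CPM over the 6 libraries. For CDX1 the nearest was RASSF9, a Ras association domain gene, at a difference of 0.327. RASSF9 had 46 and 37 counts in naive RH6 and 185 and 170 in naive RH5, against 1 in primed RH6 and 0 in primed RH5. Like CDX1 it was higher in naive RH5 than in naive RH6 and nearly absent from primed cells. The next were the T-box gene TBX22 (0.402), the HOX gene HOXB2 (0.426), the GABA receptor subunit gene GABRB2 (0.433) and the keratin pseudogene KRT16P3 (0.469). HOXB2 had 131 and 118 counts in naive RH6 and 394 and 438 in naive RH5, against 9 in primed RH6 and 7 in primed RH5. KRT16P3 has near-identical keratin relatives, so the share of reads that belongs to it is uncertain. CDX2 ranked 14 by likeness to CDX1, at 0.647.

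For CDX2 the nearest profiles were those of ERVH48-1, a gene of retroviral origin (0.235), the primitive streak homeobox gene MIXL1 (0.282), the imprinted RNA gene H19 (0.286), RP11-320N7.2 (0.321) and ABHD12B (0.322). MIXL1 had 603 and 564 counts in naive RH6 and 1223 and 973 in naive RH5, against 14 in primed RH6 and 41 in primed RH5. CDX1 ranked 40 by likeness to CDX2.

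For CDX4 the nearest were HTATSF1P2 (0.153), RP11-314D7.3 (0.189), RP11-87G24.3 (0.227), CXorf40A (0.253) and TINAGL1 (0.266). None of these had over 121 counts in a library. HTATSF1P2, a processed copy of another gene whose reads may be shared with it, had 7 and 6 counts in naive RH6 and 41 and 54 in naive RH5, against 8 in primed RH6 and 11 in primed RH5. TINAGL1, a secreted matrix protein gene, had 29 and 25 in naive RH6 and 102 and 121 in naive RH5, against 23 in primed RH6 and 40 in primed RH5. CDX1 and CDX2 were far from CDX4, at 2.12 and 1.85.

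**Figure D3:**
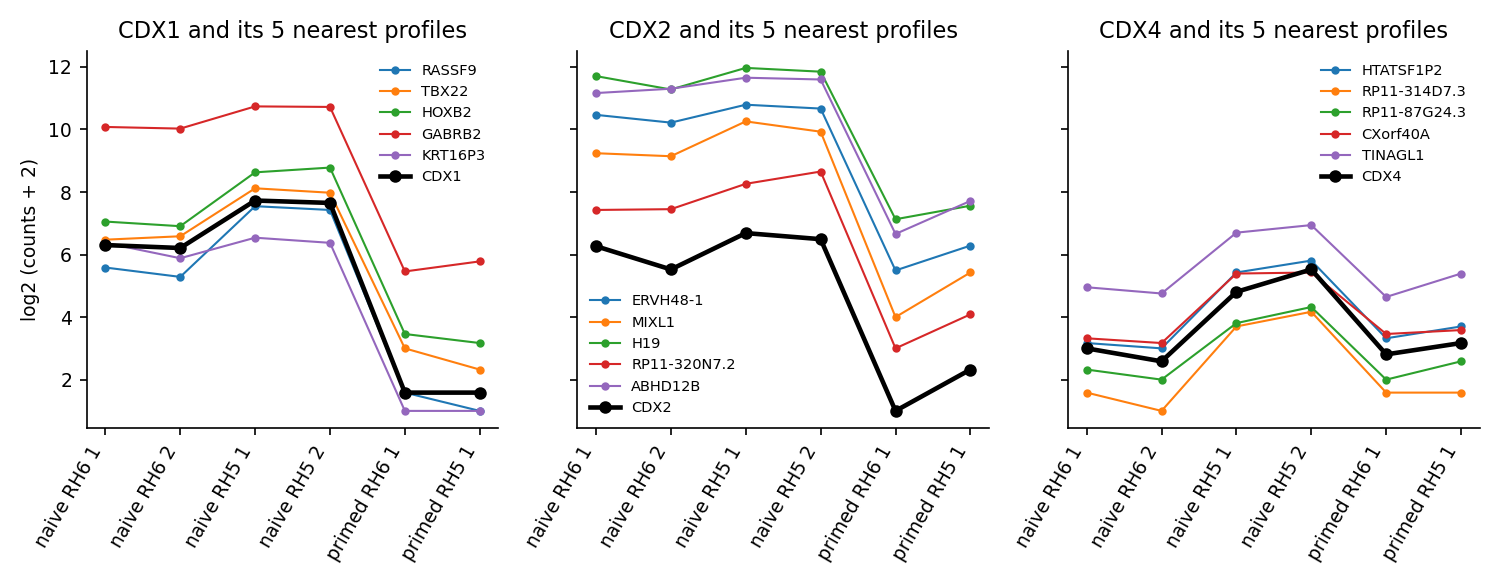
log2 of counts plus 2 in each library for CDX1, CDX2 and CDX4 (black) and the 5 genes with the nearest profile to each (colours), naive libraries left of primed ones. CDX1 and CDX2 and their neighbours are high in naive and low in primed libraries, and the CDX4 group is raised in naive RH5.

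A gene near CDX4 on the X chromosome and the gene next to CDX1 on chromosome 5 were both called. CHIC1, a cysteine-rich hydrophobic protein gene near CDX4, had 207 and 206 counts in naive RH6 and 1020 and 1111 in naive RH5, against 146 in primed RH6 and 536 in primed RH5. Its levels were lower in RH6 than in RH5 in both states. Primed CDX4, at 5 counts in RH6 and 7 in RH5, was too low to compare the lines. CHIC1 rose in naive cells over both lines, by 0.81 ± 0.14 on the log2 scale (edgeR adjusted p = 0.0078). PDGFRB, the growth factor receptor gene next to CDX1 and on the opposite strand, had 533 and 425 counts in naive RH6 and 308 and 303 in naive RH5, against 102 in primed RH6 and 56 in primed RH5. It rose by 2.38 ± 0.16 (edgeR adjusted p = 1.99e-04), and its order between the naive lines was the reverse of that of CDX1. PDGFRB is also in the list of fibroblast markers described below. SLC6A7, on the other side of CDX1, had 9 counts in naive and 1 in primed libraries. The ParaHox relatives PDX1, GSX1 and GSX2 had 1, 2 and 4 counts over all 6 libraries and URAD, beside CDX2, had 3. Of the 13 relatives and neighbours found, 8 were tested, of which 3 rose and 1 fell, where of all genes 12.1% were higher and 13.6% lower. The others called were CSF1R, a receptor gene, at 2.08 ± 0.52 and PAN3, a deadenylation factor gene, at -0.46 ± 0.11.

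HOX genes, which CDX proteins activate in the mouse embryo, were higher in naive cells. Of 39 HOX genes, 21 were tested. Of these, 18 rose and 0 fell over both lines by edgeR, against 12.1% of all genes higher, with a median log2 fold change of 4.93, or 4.09 with the 4 genes at 0 in both primed libraries set to their bound, against -0.01 over all genes tested. Most of these genes passed the low-count filter through naive libraries only, so the count is a description. The summed HOX level was 68.2 to 75.7 CPM in naive RH6 and 178.5 to 202.7 CPM in naive RH5, against 7.11 in primed RH6 and 5.29 in primed RH5, the same order of groups in the naive state as for CDX1. HOXA3 had 5 and 6 counts in naive RH6 and 221 and 192 in naive RH5, against 0 in both primed libraries, at least 73.3-fold higher by summed counts. HOXB13 had 46 naive counts and HOXA7 had 30, against 0 primed counts, at least 7.95-fold and 5.19-fold higher. HOXB5 had 176 naive counts and 1 primed count, a fold of 91.3 (interval 16.2 to 3624). With both naive libraries of a line added together, 9 HOX genes were called. Between naive RH6 and naive RH5, 12 of the 21 HOX genes were lower in RH6 and 1 was higher, against 13.5% of all genes lower and 12% higher. Genes such as HOXA3 passed the low-count filter through naive RH5 alone, which favours a lower level in RH6. This count is therefore also a description.

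Signals and factors known in mouse to act on Cdx genes went both ways. Of 22 tested, 8 rose and 4 fell in naive cells, against 12.1% higher and 13.6% lower of all genes, with a median log2 fold change of 0.48. Without primed RH5 13 rose and 3 fell (median 0.95), and without primed RH6 9 rose and 6 fell (median 0.19).  WNT3 rose by 2.62 ± 0.14, with 74.1 CPM in naive and 12.3 CPM in primed libraries on average, and WNT5A by 2.71 ± 0.16 (edgeR adjusted p = 9.66e-05 and 1.19e-04). WNT8A had 64 and 52 counts in naive RH6 and 215 and 248 in naive RH5, against 21 in primed RH6 and 6 in primed RH5. It rose by 3.08 ± 0.73 (edgeR adjusted p = 0.0223) and, like CDX1, was higher in naive RH5 than in naive RH6. The ligand genes FGF4, at 3.02 ± 0.47, FGF8, at 2.68 ± 0.32, and BMP4, at 2.30 ± 0.19, also rose. The TCF/LEF factors, which carry Wnt signals to DNA, were split. TCF7 rose by 1.15 ± 0.11 and LEF1 by 0.99 ± 0.15, while TCF7L1 fell, at -0.75 ± 0.22, and so did TCF7L2, at -0.77 ± 0.14 (edgeR adjusted p = 7.9e-04, 0.0041, 0.047 and 0.0091 in that order). RARG, a retinoic acid receptor gene, fell, at -1.05 ± 0.14, and the ligand gene FGF2 fell, at -0.64 ± 0.17 (edgeR adjusted p = 0.0022 and 0.0359). POU5F1 averaged 406.9 ± 70.5 CPM in naive libraries (SD, n = 4), against 310.4 CPM in primed RH6 and 387.8 CPM in primed RH5, and was not called (edgeR adjusted p = 0.4291). GATA3, a trophectoderm factor that acts on mouse Cdx2, was not called, at 1.27 ± 0.40 (edgeR adjusted p = 0.0584). With the naive libraries summed, 6 of the 22 rose and 0 fell.

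Posterior and primitive streak genes, expressed where Cdx genes first appear in the embryo, rose in 7 of 15 tested and fell in 2, against 12.1% higher and 13.6% lower of all genes, with a median log2 fold change of 1.36, or 2.56 in RH6 and 1.29 in RH5. T, the brachyury gene of the streak, had 751 and 824 counts in naive RH6 and 604 and 548 in naive RH5, against 7 in primed RH6 and 27 in primed RH5. It rose by 5.34 ± 0.47 (edgeR adjusted p = 5.43e-04), MIXL1 by 5.02 ± 0.22, the homeobox gene EVX1 by 4.44 ± 0.55 and SP5, a direct Wnt target, by 3.79 ± 0.17. CYP26A1, which breaks down retinoic acid in the tail bud, fell, with 1874 and 1740 counts in naive RH6 and 334 and 285 in naive RH5, against 3242 in primed RH6 and 1593 in primed RH5 (log2 fold change -1.61 ± 0.32, edgeR adjusted p = 0.0114). The other gene that fell was DLL1, a Notch ligand gene, at -2.13 (edgeR adjusted p = 0.0211). With the naive duplicates added together 6 of the 15 rose and 0 fell. In contrast to CDX1 and CDX4, CYP26A1 was higher in naive RH6 than in naive RH5.

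Intestinal genes that CDX1 and CDX2 are known to activate or work with were mostly silent. Of 21, 5 were tested, and SI and TFF3 had 0 counts in every library. The adhesion gene CDH17, a direct CDX2 target in gut, had 9 naive counts and 9 primed counts in all. APOB, a lipoprotein gene, fell, at -2.53 ± 0.72 (edgeR adjusted p = 0.0412), and was the 1 tested gene of this list that was called. The call was not made with limma-voom, with the naive duplicates added together or when any 1 naive library was left out. Most of the fall lay in RH5, with a log2 fold change of -4.08 there and -0.54 within RH6, each against 1 primed library.

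**Figure D4:**
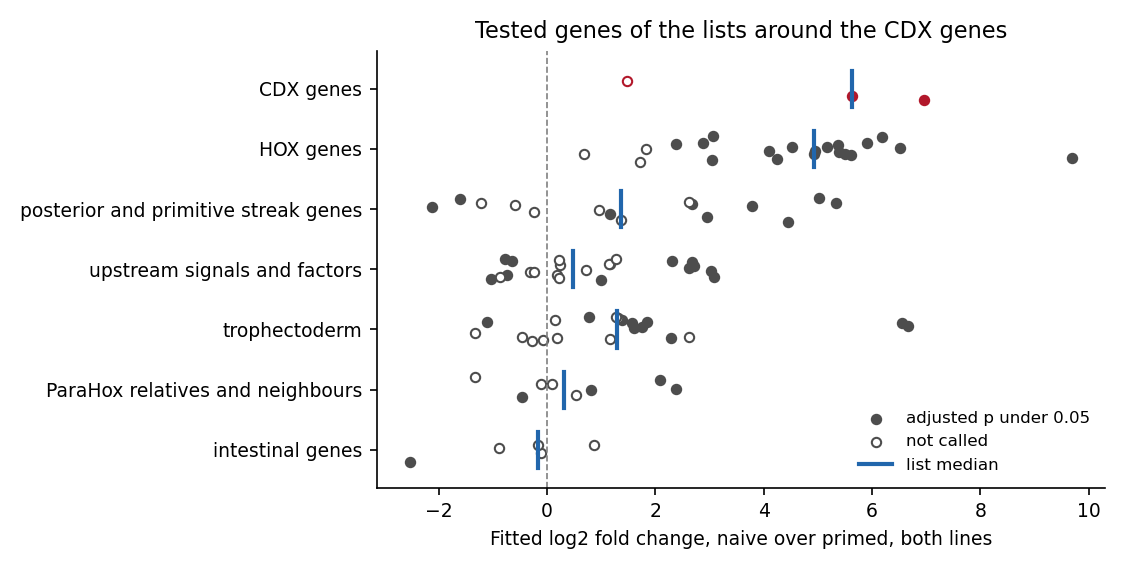
Fitted log2 fold change of each tested gene, naive over primed over both lines, for the CDX genes (red) and 6 lists (grey); filled points were called by edgeR, open points were not, and blue bars are list medians. Fitted values of genes at 0 in primed libraries depend on the prior count. Of the 6 lists, HOX genes have the highest median, 4.93, and intestinal genes lie around 0, with a median of -0.17.

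The labelled state was checked against its markers. All 8 markers of pluripotent cells were expressed in each library. Their summed level was 7662 to 7940 CPM in naive RH6 and 5850 to 6158 CPM in naive RH5, against 8747 in primed RH6 and 9589 in primed RH5. Over both lines 0 of these 8 rose and 3 fell by edgeR, against 12.1% of all genes higher and 13.6% lower. Of 10 listed markers of the naive state 8 were tested, and 6 of these rose. ARGFX and DPPA5 had too few counts to be tested, and DPPA5 had 0 naive counts and 1 primed count. KLF17 had 33 naive counts and 0 primed counts. All 7 tested markers of the primed state fell. Most of the tested naive markers thus went with the label, but DPPA5 was absent from the naive libraries and KLF17 was low.

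Some lists of markers of other cell types rose along with CDX1 and CDX2 and others did not, where of all genes 12.1% were called higher and 13.6% lower. The trophectoderm and endoderm lists hold no CDX gene. Of 20 tested trophectoderm markers 9 rose and 1 fell, with a summed level of 3141 to 3311 CPM in naive libraries, against 860.7 in primed RH6 and 1350 in primed RH5. With the naive duplicates added together 4 trophectoderm markers rose and 0 fell. TFAP2C, a trophoblast and naive-cell factor, rose by 1.38 ± 0.14 (edgeR adjusted p = 8.47e-04). CGA, a placental hormone subunit gene, had 1 and 0 counts in naive RH6 and 22 and 25 in naive RH5, against 0 in both primed libraries. The trophoblast genes ELF5, VGLL1 and CGB had 8, 9 and 1 counts over all libraries. Amnion markers rose in 5 of 9 and fell in 1, with 272.2 to 324.6 CPM in naive libraries, against 226.3 in primed RH6 and 252.6 in primed RH5. Fibroblast markers, the feeder cell type, rose in 6 of 13 and fell in 2, with 423.8 to 906.1 CPM in naive libraries, against 306.1 in primed RH6 and 298.2 in primed RH5, and the fibroblast genes DCN and FAP had too few counts to be tested. Fibroblast markers were higher in naive RH6 (707.2 to 906.1 CPM) than in naive RH5 (423.8 to 480.9 CPM), the reverse of the order of the CDX genes. The part of such cells in the CDX levels was not tested. Of 10 endoderm and gut markers 0 rose and 1 fell over both lines, with 120.3 to 157.7 CPM in naive libraries, against 41.4 in primed RH6 and 302.4 in primed RH5. Within RH6 7 of these 10 rose and 1 fell, while within RH5 1 rose and 8 fell. Caudal epiblast and mesoderm markers, a list that holds CDX4 itself, rose in 3 of 6 and fell in 1. All other genes of that list are also in the posterior and primitive streak list above. Of 8 neural markers 0 rose and 5 fell, and of 5 germ cell markers 2 rose and 2 fell.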

How the data were processed

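The authors deposited raw counts of reads for each gene, 1 column per library. FastQC, STAR 2.4.0a, featureCounts 1.4.5-p1 and DESeq2 are named, per the submitters' processing notes, with the builds GRCh37.p5 and hg19. Neither the annotation nor how strand was counted is given in the sources used here, so reads of a gene and of one on the opposite strand might not be told apart. Per the labels' protocols, libraries came from a stranded total RNA kit and were sequenced as paired 75-base reads, at least 30 M per library, while the labels give the molecule as polyA RNA.

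The deposited counts were tested with edgeR 4.0.16 in R 4.3.3 (quasi-likelihood F-test, TMM, filterByExpr by state at its default minimum of 10 counts, 15 in total), and 19434 genes were kept. Naive against primed over both lines was fitted with the line as a covariate (3 residual degrees of freedom). Contrasts within lines, between lines and between naive lines came from 1 mean per group (2 residual degrees of freedom), where lone primed libraries are assumed to vary like the naive duplicates. P-values are two-sided, adjusted by Benjamini-Hochberg over all genes tested, and called under 0.05. A standard error is the log2 fold change divided by the square root of F, which can be too narrow where a group has few counts. Folds by summed counts used TMM-scaled library sizes with exact conditional binomial 95% intervals, which cover counting error only, since reads carried no molecular identifiers. Homeoboxes were placed by a conserved motif of the homeodomain in the translated GENCODE 29 transcripts.

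Naive duplicates differed by more than counting noise (chi-square per gene 9.22 in RH6 and 5.76 in RH5, where noise alone gives about 1) and were kept apart. The members and lists were chosen with earlier results of these data known. Named genes are the CDX genes, the 5 genes nearest in profile to each, 8 genes given whatever their result, and from each list up to 4 called genes with the largest log2 fold change. 1 gene of the lists is not reported here. Genes of a list with too few counts to be tested, those of the cell types, and DLL1, FGF2, RARG, LEF1, POU5F1 and the TCF genes were named after their values were seen. Alternatives were DESeq2 1.42.0, limma-voom (limma 3.58.1), RLE and upper-quartile factors, no low-count filter, leaving out each library, no line term, naive libraries summed, a replicate block and, for folds, total counts.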

Additional observations from a re-analysis of the deposited data

Results flagged for a closer look

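The interaction test of the naive effect between the lines called none of the 3 CDX genes, whose few primed counts make it weak. It called 6 other genes named for their profile, list or role. The log2 fold change in RH6 minus that in RH5 was 2.47 for T, 3.53 for APOB, 1.86 for GATA3, 1.61 for CYP26A1 and 0.77 for ABHD12B, and -3.69 for WNT8A (edgeR adjusted p = 0.008, 1.46e-04, 0.0051, 2.64e-04, 0.046 and 0.0031 in that order). Each rests on 1 primed library per line.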

How the results depend on the processing

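CDX1 and CDX2 were called over both lines and within each line under every alternative run, with adjusted p-values up to 0.0105 for CDX1 and 0.0265 for CDX2 over both lines. Between naive RH6 and naive RH5, CDX1 (adjusted p up to 3.14e-04) and CDX4 (up to 0.0162) were called under all 11 alternatives. CDX2, not called there, was called with no low-count filter (0.0487) and with a replicate block (0.0039). Across the libraries left out its adjusted p was 0.0197 to 0.3604 and its fold 0.472 to 0.766, lowest in both without naive RH6 replicate 1. CDX4 over both lines had adjusted p of 0.0142 to 0.947 across the libraries left out, and was called only without primed RH6. CDX4 in RH5 lost its call with DESeq2 (0.1287), and across the libraries left out it had 7.94e-04 to 0.0528. The sign of CDX4 in RH6, not called, turned with upper-quartile factors (adjusted p = 1.0) and without naive RH6 replicate 1 (0.9198), in a range of 0.8372 to 0.9533 across the libraries left out. The causes were not tested.

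Of all genes, 4996 were called over both lines, and 3017 to 6507 across the libraries left out: 3327 and 3029 without naive RH6 replicate 1 and 2, 3017 without naive RH5 replicate 1, and 1092 after adding up the naive duplicates, where fewer libraries remain. With upper-quartile factors 1959 genes were higher and 3200 lower over both lines, against 2350 and 2646 with TMM. DESeq2 called 4003 genes against 6528 in RH6, 3905 against 6506 in RH5, 1267 against 2337 for the difference between lines and 2856 against 4952 between naive lines. Same-numbered naive libraries deviated together with a correlation of 0.14 over genes, but nothing says that the numbers pair cultures. The replicate block called 7404 genes between naive lines, against 5034 without it on the same 4 libraries. The few primed counts limit every fold of CDX1 and CDX2.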
